A study of Mus musculus with 24 samples.

Results

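Basal cells sorted for high surface BCAM were compared with the differentiated cells of the same epithelium, in 16 of the 24 RNA sequencing libraries of the study. Each library came from 1000 airway epithelial cells sorted from the trachea of naive, wild-type female mice, of the strain C57BL/6 by the series title. The BCAM high group and the differentiated group were chosen by the subset named in the labels and held 8 libraries each, libraries 1 to 5 of batch 1 and libraries 6 to 8 of batch 2; the 8 libraries of BCAM low cells entered the fit only to share its estimate of the spread. The labels give no age, no number of animals per library and no gating markers beyond the subset names, and they do not say what the batch number stands for. Because nothing states that the libraries of a group came from separate animals, the p-values measure the spread between these libraries, which may be technical.

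The tracheal epithelium rests on a layer of basal cells, the progenitors that are anchored to the basement membrane by hemidesmosomes and joined to their neighbours by desmosomes. Above them lie club and goblet cells, which secrete the proteins and mucins of the airway lining, ciliated cells, which move that layer along, and rarer tuft, neuroendocrine and ionocyte cells. BCAM is a surface glycoprotein that binds laminin, the main protein of the basement membrane. Notch signals between neighbouring cells guide the choice between secretory and ciliated fates, and Wnt and epidermal growth factor signals bear on basal cell growth.

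Total estimated counts ran from 2249001 to 3686896 over the 16 libraries, and 15366 to 18949 genes had at least 1 count. Levels are given as CPM, the usual depth-scaled counts, after scaling by edgeR's TMM factors, and differences as log2 fold changes of BCAM high minus differentiated from edgeR's quasi-likelihood fit with batch as a covariate, each with its standard error (SE). "Adjusted p" means the Benjamini-Hochberg adjusted p of that test over all 12211 genes tested, and a gene was called at an adjusted p under 0.05. The fit held no pairing, although same-numbered libraries correlated best with each other within their batch (0.0354 to 0.161). A fit of the 16 libraries with a term for each library number (replicate block) did not call Krt15, Epas1, Bpifa1, Ly6d, Myc, Ier2, Cldn10 and Fmo2. The first principal component held 48.5% of the variance and separated the groups, at 60.5 to 68.2 for BCAM high and -80.4 to -50.4 for differentiated libraries. The second, with 14.2%, set the 3 differentiated libraries of batch 2 (22.3 to 76.5) apart from the 5 of batch 1 (-52.3 to -27.2). It also parted the BCAM high libraries by batch, over a smaller range (9.2 to 28.2 in batch 2, -14.4 to -2.2 in batch 1). The 3 differentiated libraries of batch 2 stood apart in their content too. The 14 thyroid follicle genes listed made up 4.78% to 11.1% of their counts against 1.03% to 2.12% in batch 1, and the 14 club cell genes made up 1.65% to 10.8% against 25.4% to 32.7%. Libraries 6 and 7 were the most extreme on both counts. In bulk samples, fewer cells of a type and less RNA per cell cannot be told apart, and a change in 1 abundant class shifts the share left for all others. The part of these transcripts in each result was not tested beyond the values given for each batch.

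BCAM is the protein named in the label of the BCAM high group, so its transcript is a check there and no finding. The label of the differentiated group does not name it. Bcam (chr7:19756131-19771016, GRCm38) measured 324 to 739 CPM (median 502) in BCAM high and 109 to 907 CPM (median 252) in differentiated libraries, and the groups overlapped. In batch 1 alone Bcam was higher in BCAM high cells (log2 fold change 1.26, edgeR adjusted p = 0.0027); in batch 2 alone it was not called (-0.26, adjusted p = 0.45). The differentiated libraries of batch 2 had a mean of 751 CPM against 182 CPM in batch 1. Over both batches the difference was 0.61 ± 0.29, edgeR adjusted p = 0.095, and it passed the threshold without differentiated library 6 (0.76, adjusted p = 0.033) or without library 7 (0.77, adjusted p = 0.029).

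Of the 12211 genes tested, 2363 (19.4%) passed the threshold with higher and 2681 (22.0%) with lower levels in BCAM high cells. A log2 difference of at least 1 was reached by 984 of the higher and 1412 of the lower genes, and the 2 groups of libraries did not overlap at 745 and 892 genes. Among the genes called higher, 1689 of 2360 were also called when batch 1 was tested alone, and 1294 of 2316 for batch 2. Among those called lower the counts were 1935 of 2612 and 1629 of 2648. The sign was the same for 2360 and 2293 of the higher genes and for 2608 and 2562 of the lower ones. Each batch is part of the fit that chose these genes, so this agreement of sign is no separate test. The median log2 difference of all genes tested was 0.02 on the TMM scale. On the authors' TPM values, which are not rescaled for the very abundant secretory and thyroid transcripts, that median was 0.75 (pseudocount 0.1) or 0.64 (pseudocount 1) and 88.6% or 88.3% of the calls were higher in BCAM high, against 46.8% in the fit used here and 49.7% once the TPM were scaled by TMM factors. With the thyroid and parathyroid levels as covariates, which do not overlap between the groups for the thyroid list, 152 genes were higher and 101 lower (60.1% higher). Differences below are relative to the TMM scaling. Counts of called list members are to be read beside the 19.4% higher and 22.0% lower of all genes tested.

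**Figure D1:**
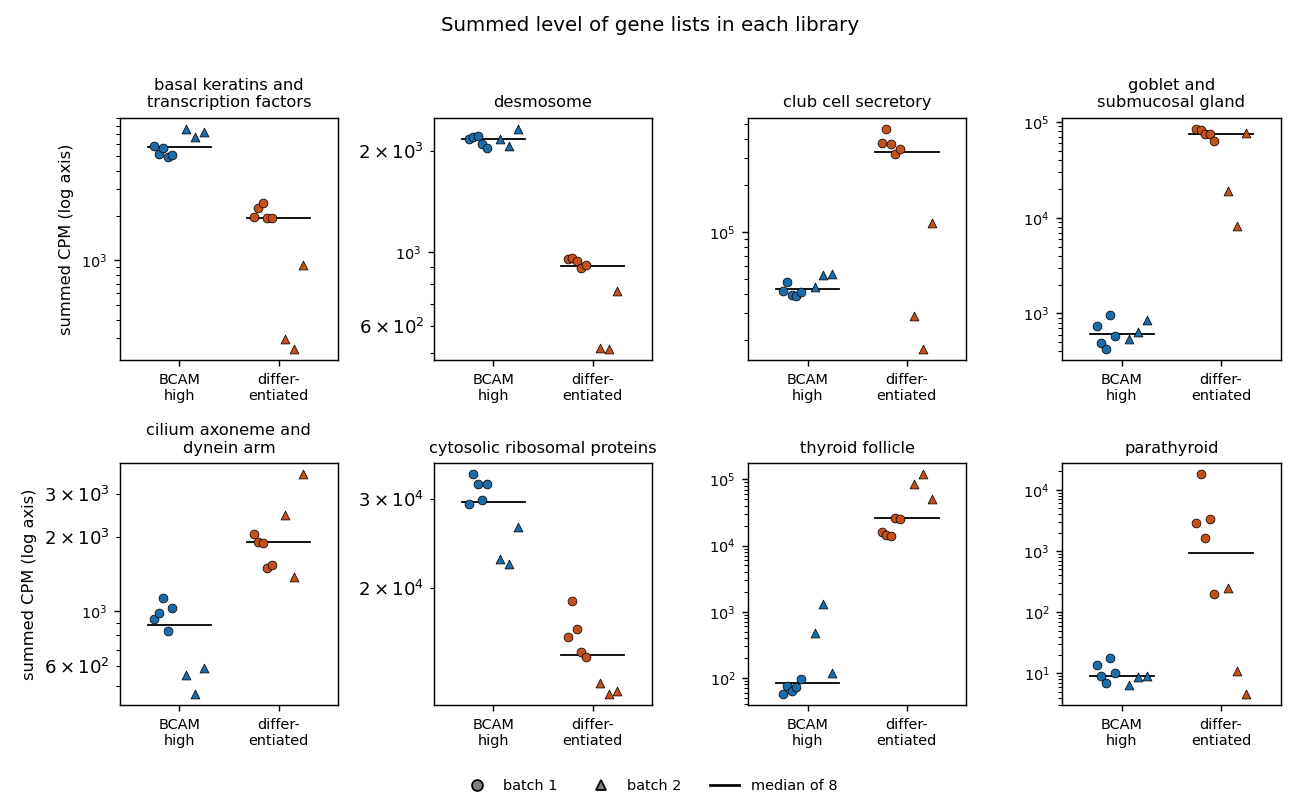
Summed CPM of 8 gene lists (log axis) in each of the 8 BCAM high and 8 differentiated libraries, with circles for batch 1, triangles for batch 2 and a line at the median of 8. The differentiated libraries of batch 2 sit above batch 1 for thyroid genes and below it for club cell genes, while the 2 groups do not overlap for basal, desmosome, gland, cilium, ribosomal and thyroid genes.

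Thyroid and parathyroid transcripts were set apart from those of the airway. Thyroid follicle cells store the hormone precursor thyroglobulin and take up iodide; the gland lies against the upper trachea. Summed over the 14 listed genes, differentiated libraries held 14080 to 26410 CPM in batch 1 and 50350, 84490 and 118500 CPM in libraries 8, 6 and 7, whereas BCAM high libraries held 56.2 to 95 CPM in batch 1 and 119.5, 483.1 and 1326 CPM in libraries 8, 6 and 7. In both groups the libraries numbered 6 and 7 were thus the highest. All 13 tested members were called lower in BCAM high (list median -6.22, against 0.02 for all genes tested), and the groups did not overlap for any of them. Tg (chr15:66670753-66850721), the precursor itself, measured 1.47 to 1237 CPM (median 23.5) in BCAM high and 12940 to 112400 CPM (median 24050) in differentiated libraries (-9.50 ± 1.05, edgeR adjusted p = 2.7e-07). The iodide transporter Slc5a5 (-8.40 ± 0.58), the iodide-recycling enzyme Iyd (-8.56 ± 0.59), the thyrotropin receptor Tshr (-6.05) and the transcription factor Pax8 (-7.79) gave the same direction. For 12 of the 13 genes every batch 2 differentiated library lay above every batch 1 one; 10.9% of all tested genes had that order.

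Of 5 listed parathyroid genes 2 were tested, Pth, which was called lower, and Tbx1. Tbx1 was not called over both batches (0.56) and was higher in BCAM high in batch 2 alone (2.84, edgeR adjusted p = 0.043). Pth, Gcm2 and Casr followed another pattern across the libraries than the thyroid genes. Pth, parathyroid hormone, stood at 2824, 17650, 1607, 3270 and 186 CPM in differentiated libraries 1 to 5, at 234 CPM in library 6 and at 0 in libraries 7 and 8; BCAM high libraries reached at most 11.6 CPM. Differentiated library 2 was therefore the highest for Pth, and the 2 libraries with the most and the least thyroid RNA of batch 2 had none. The fitted difference was -10.77 ± 2.45, edgeR adjusted p = 0.0012. Gcm2 and Casr, a parathyroid transcription factor and the calcium-sensing receptor, did not pass the filter on low counts and peaked in the same library, at 41.5 and 92.8 CPM. Chga, a granule protein of endocrine cells, also peaked there at 11430 CPM, stood at 15.2 CPM in library 8, and was lower in BCAM high (-11.40 ± 2.16, edgeR adjusted p = 0.00021; adjusted p = 0.14 in batch 2 alone). Of the C cell and neuroendocrine list, 4 of 5 tested members were called lower: Chga, Scg5 (-8.19), Grp (-7.32) and Cplx2 (-2.38). Calcb was not called (-0.80 ± 0.55, edgeR adjusted p = 0.26). Scg5, Grp and Cplx2 did not follow Chga across the libraries. Like Tg, they peaked in differentiated library 7, at 331, 798 and 342 counts, where Chga had 40. Which cells these 3 transcripts came from was not tested. Calca, the calcitonin gene, did not pass the filter; it reached 216 CPM in differentiated library 5 and 2.06 to 46.07 CPM in the other 7.

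Basal cell genes were higher in BCAM high libraries. All 8 genes of the list of basal keratins and transcription factors passed the filter and all 8 were called higher (list median 5.05). Krt15, a keratin of basal cells, was high in both groups, with 2458 to 3782 CPM (median 2908) in BCAM high and 211 to 2413 CPM (median 1909) in differentiated libraries. The groups did not overlap, but the differentiated libraries averaged 2084 CPM in batch 1 against 464 CPM in batch 2. The difference was 1.20 ± 0.37, edgeR adjusted p = 0.013 over both batches, 0.38 in batch 1 alone (edgeR adjusted p = 0.0021) and 3.02 in batch 2 alone (adjusted p = 0.0048). Krt15 was not called with the replicate block. Snai2 (4.44), a transcriptional repressor, and Sox15 (2.89), a transcription factor of the Sox family, rose as well. Trp73, a relative of Trp63 needed for cilium formation, was higher in BCAM high at low levels, 2.83 to 9.99 CPM (median 6.41) against 0.546 to 7.41 CPM (median 2.45) (1.25 ± 0.42, edgeR adjusted p = 0.018), and lost its call in batch 2 alone.

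Of 15 tested receptors and surface proteins of basal cells, 12 were called higher (19.4% of all tested genes were) and none lower. Aqp3, a water and glycerol channel of the basal layer, measured 2294 to 2528 CPM (median 2368) in BCAM high and 29 to 171 CPM (median 129.8) in differentiated libraries (4.55 ± 0.26, edgeR adjusted p = 1.3e-12). The values lay far apart in every library of both batches. Itgb4, the integrin subunit of hemidesmosomes, measured 478 to 717 CPM (median 536) against 32.8 to 60.9 CPM (median 40.1) (3.71 ± 0.13, edgeR adjusted p = 1e-18), again with no overlap. Egfr (1.78), Pdpn (2.40), Icam1 (1.5) and Itga6 (1.24) were higher. Dlk2, a membrane protein with epidermal growth factor repeats, had 3 counts in all differentiated libraries together against 3544 in BCAM high, a ratio of 640.0-fold (95% interval 219 to 3100) by counting error alone. Cd44, the hyaluronan receptor, was not called over both batches (0.05 ± 0.12, edgeR adjusted p = 0.76), nor was Fzd6 (-0.44). In batch 2 alone Cd44 was higher (0.56, edgeR adjusted p = 0.014), against -0.26 in batch 1 alone (adjusted p = 0.052).

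Anchoring genes rose broadly. Of the 12 tested hemidesmosome and laminin genes 10 were called higher (19.4% of all tested genes were), median 1.57. Col17a1, the transmembrane collagen of hemidesmosomes, measured 243 to 602 CPM (median 297) in BCAM high and 0 to 6.33 CPM (median 1.21) in differentiated libraries (7.54 ± 0.39, edgeR adjusted p = 7e-13). Dst, the plakin that ties keratin filaments to that junction, measured 282 to 534 CPM (median 323) against 22.2 to 63.1 CPM (median 33) (3.33 ± 0.19, edgeR adjusted p = 2.5e-13). For both genes every BCAM high library lay above every differentiated one. The laminin chains Lama3 (3.09 ± 0.27) and Lamb3 (3.03) were higher. Itgb1, the partner of many integrin alpha chains, was not called (0.03 ± 0.16, edgeR adjusted p = 0.9).

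Desmosome genes changed in both directions. Of 10 tested, 9 were higher, with a median of 1.72, and 1 was lower (19.4% and 22.0% of all tested genes were). The cadherins Dsc3 (5.66 ± 0.56), Dsg3 (3.67 ± 0.43) and Dsc2 (2.56 ± 0.20) and the plaque protein Pkp1 (4.23 ± 0.34) had the largest increases. Pkp2, a plakophilin found in simple epithelia too, was the exception, with 5 to 13.2 CPM (median 7.5) in BCAM high and 18.9 to 39.5 CPM (median 26.7) in differentiated libraries (-1.81 ± 0.22, edgeR adjusted p = 1.3e-07). No library of one group reached the other for Pkp2.

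Tight junction genes, which seal the apical side of the epithelium, mostly ran the other way: 10 of 15 tested were lower (22.0% of all tested genes were) and 2 higher. Cldn3 measured 95.9 to 176 CPM (median 154) in BCAM high and 332 to 1087 CPM (median 835) in differentiated libraries (-2.36 ± 0.15, edgeR adjusted p = 7.1e-13), with no overlap. Tjp3 (-1.65), Cgn (-1.54), Cldn7 (-1.17) and Cldn4 (-1.02) were lower. F11r, a junctional adhesion molecule, was higher (0.82 ± 0.09, edgeR adjusted p = 2.2e-08), as was Cldn1 at low levels (1.75 ± 0.61, edgeR adjusted p = 0.021), which was not called in batch 2 alone (1.01, adjusted p = 0.48) or without differentiated libraries 6 and 7 (adjusted p = 0.053). Cldn10 was lower over both batches (-1.68 ± 0.50, edgeR adjusted p = 0.01) and in batch 1 alone (-2.65), but stood at 0.75 in batch 2 alone (adjusted p = 0.24); its BCAM high libraries averaged 15.3 CPM in batch 1 against 101 CPM in batch 2. Cldn10 was not called with the replicate block. On unscaled TPM 5 members of the list were higher and 6 lower.

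**Figure D2:**
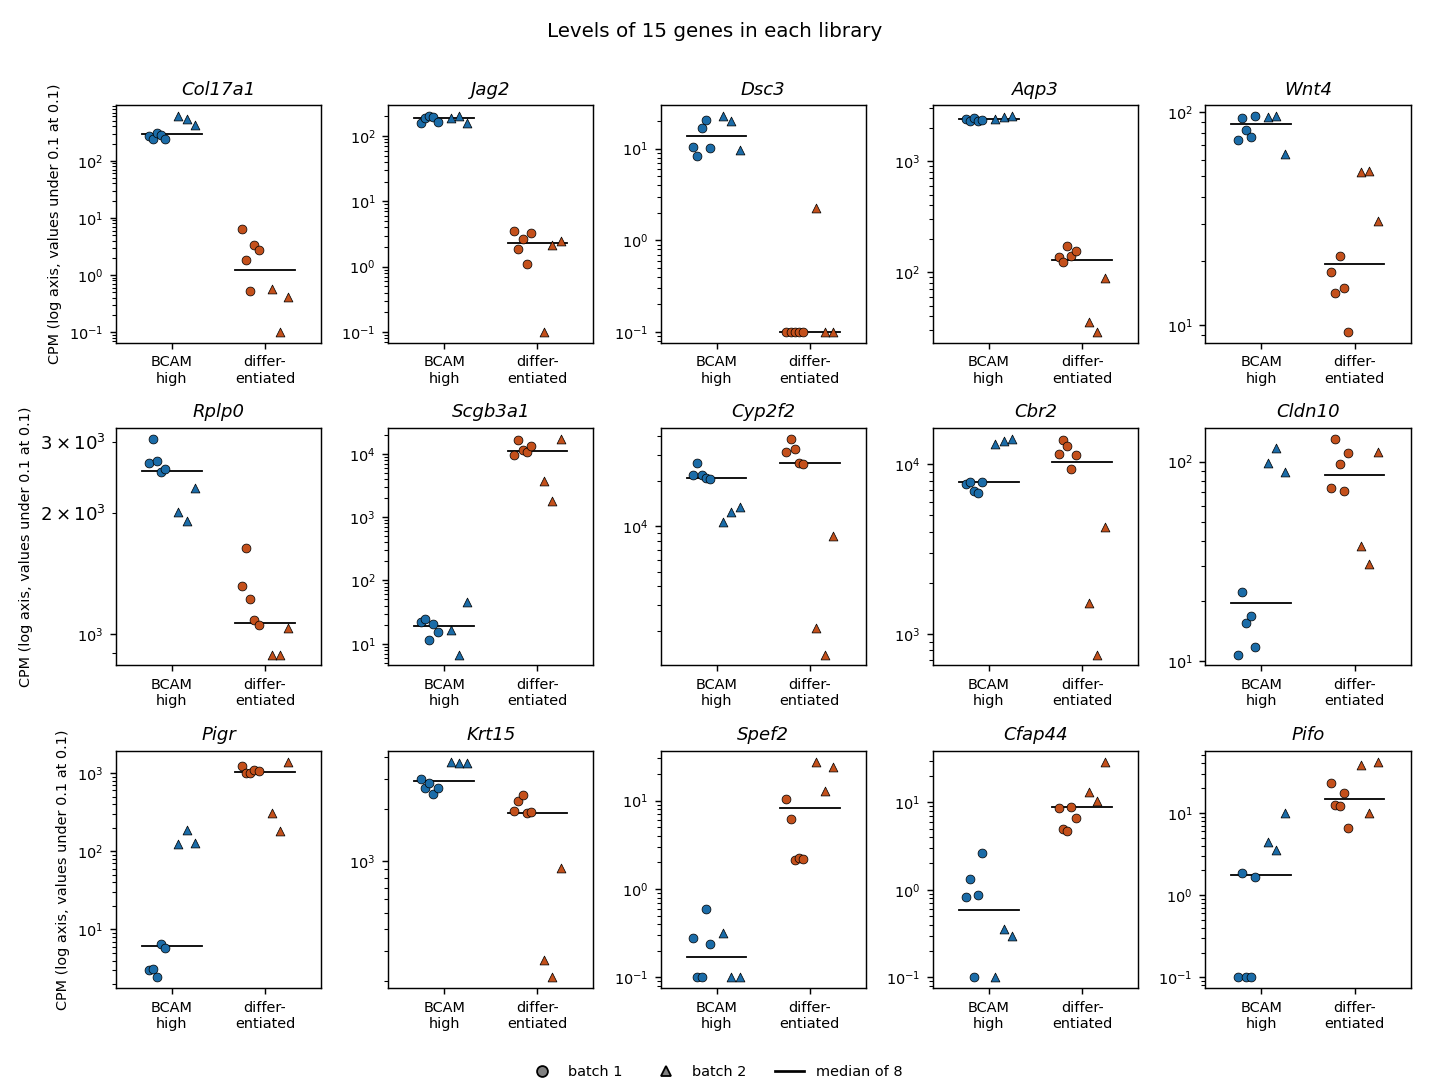
CPM of 15 genes (log axis, values under 0.1 drawn at 0.1) in each library, circles for batch 1, triangles for batch 2, a line at the median of 8. Col17a1, Jag2 and Aqp3 separate the groups in every library, whereas for Cyp2f2, Cbr2 and Krt15 the differentiated libraries of batch 2 fall away from those of batch 1.

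Among Notch genes, all 3 tested ligands were higher and the receptors were split. Jag2, a ligand, measured 157 to 201 CPM (median 191) in BCAM high and 0 to 3.46 CPM (median 2.3) in differentiated libraries (6.39 ± 0.21, edgeR adjusted p = 2.8e-19). The ligand Dll1 was also higher, 39.8 to 79 CPM (median 56.7) against 2.47 to 14.7 CPM (median 3.95) (3.33 ± 0.28, edgeR adjusted p = 1.4e-10), and Jag1 less so (1.04). Neither Jag2 nor Dll1 had a differentiated library within the range of BCAM high. Of the receptors, Notch1 was higher, at 114 to 162 CPM (median 131) against 29.9 to 72.1 CPM (median 34.5) (1.70 ± 0.19, edgeR adjusted p = 4.4e-08). Notch2 was lower, at 65.3 to 84.9 CPM (median 77.8) against 85.8 to 250 CPM with a median of 208 (-1.24 ± 0.15, edgeR adjusted p = 5.8e-08), and so was Notch3 (-2.17 ± 0.33, edgeR adjusted p = 3.2e-06; adjusted p = 0.063 in batch 2 alone). Lfng and Rfng, glycosyltransferases that tune the receptors, were higher (1.51 and 1.23). Lfng, with 7 to 19 counts in each BCAM high library, was not called in batch 2 alone (1.09, adjusted p = 0.4) or without differentiated libraries 6 and 7 (adjusted p = 0.059). The targets Hes1 (-0.40 ± 0.23, edgeR adjusted p = 0.17) and Hey1 (0.29 ± 0.32, edgeR adjusted p = 0.5) were not called over both batches; Hes1 was lower in batch 1 alone (-0.79, adjusted p = 0.027) and Hey1 higher in batch 2 alone (1.75, adjusted p = 0.0046). Heyl, another target, did not pass the filter on low counts. It had 0 to 4 counts in BCAM high libraries and 7 to 64 in differentiated ones. Hey2 and Nrarp, also untested, overlapped between the groups. In all, 6 of 10 tested Notch genes were higher and 2 lower, against 19.4% and 22.0% of all tested genes. The share of lower genes was thus near that of all genes.

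Of 21 tested Wnt pathway genes, 8 were higher and 2 lower (19.4% and 22.0% of all tested genes were). Wnt4, a ligand, measured 63.8 to 96 CPM (median 88.5) in BCAM high and 9.28 to 53.3 CPM (median 19.5) in differentiated libraries (1.70, edgeR adjusted p = 5.1e-05). Wnt9a was also higher (3.23 ± 0.42, edgeR adjusted p = 3.3e-07), as were the receptor Fzd10 (4.16 ± 0.59) and the secreted antagonists Sfrp1 (4.43 ± 0.39) and Dkk3 (2.54). Wnt5a ran the other way, 0.24 to 2.64 CPM (median 0.551) against 6.55 to 17.1 CPM (median 11.3) (-3.44 ± 0.55, edgeR adjusted p = 8e-06), and so did Nkd1, an intracellular antagonist (-4.29 ± 0.56, edgeR adjusted p = 4e-07). The receptors Lgr4 (-0.24 ± 0.16, edgeR adjusted p = 0.25) and Lgr6 (0.62 ± 0.40, edgeR adjusted p = 0.23) were not called over both batches; in batch 2 alone Lgr4 was lower (-0.98, adjusted p = 0.0011) and Lgr6 higher (2.74, adjusted p = 0.0038). Under unscaled TPM, 15 members were higher.

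The epidermal growth factor and IGF binding list was divided, with 5 of 14 higher and 5 lower. Of all tested genes, 19.4% were higher and 22.0% lower. Nrg1, the neuregulin ligand, measured 12 to 52.1 CPM (median 25.2) in BCAM high and 0 to 1.73 CPM (median 0.278) in differentiated libraries (5.21 ± 0.48, edgeR adjusted p = 5.4e-10). Hbegf was higher (0.67 ± 0.15, edgeR adjusted p = 0.00042), and Igfbp7, a secreted IGF binding protein, was too (3.16 ± 0.38, edgeR adjusted p = 2e-07). The ligands Btc (-2.43 ± 0.39, edgeR adjusted p = 7.9e-06), Areg (-1.05 ± 0.41, edgeR adjusted p = 0.042) and Tgfa (-0.69 ± 0.24, edgeR adjusted p = 0.021) were lower, the last 2 not called in batch 2 alone (adjusted p = 0.46 and 0.29). Areg lost its call without any 1 of 12 of the 16 libraries (adjusted p 0.056 to 0.093), and Tgfa without differentiated library 7 (0.063) and turned to 0.39 on unscaled TPM. Igfbp5 was lower (-1.01 ± 0.12, edgeR adjusted p = 3.7e-08), and the receptor Erbb3 was not called (-0.07 ± 0.13, edgeR adjusted p = 0.72).

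Of 15 tested genes of the YAP pathway and of caveolae, membrane pits coated by caveolins and cavins, 9 were higher and 2 lower. The shares among all tested genes were 19.4% and 22.0%. Cav1 measured 188 to 1170 CPM (median 875) in BCAM high and 30.5 to 296 CPM (median 154) in differentiated libraries (2.26 ± 0.19, edgeR adjusted p = 5.5e-10), with a BCAM high mean of 984 CPM in batch 1 and 251 CPM in batch 2. Cav2 (1.52), Cavin1 (1.53), Cavin2 (1.25) and Cavin3 (1.73) rose with it. Axl, a receptor kinase and YAP target, was higher (3.41 ± 0.45, edgeR adjusted p = 1.9e-06), as was the scaffold Ajuba (2.68 ± 0.22, edgeR adjusted p = 6.8e-11), but the classical targets Ccn1 (0.63 ± 0.27, edgeR adjusted p = 0.061) and Ccn2 (-0.06 ± 0.28, edgeR adjusted p = 0.89) were not called. Ccn1 was called higher without BCAM high library 2 (0.70, adjusted p = 0.041), BCAM low library 5 (0.63, adjusted p = 0.038) or differentiated library 1 (0.84, adjusted p = 0.011). Thbs1, thrombospondin, was lower (-2.08 ± 0.43, edgeR adjusted p = 0.00045), with a differentiated mean of 92.9 CPM in batch 1 and 618 CPM in batch 2. Amotl2 was lower by a small margin (-0.44 ± 0.18, edgeR adjusted p = 0.048) that 15 of the 24 ways of leaving out 1 library brought over the threshold (adjusted p 0.051 to 0.14) and that stood at 0.03 on unscaled TPM.

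Club cell genes were uneven. Several secreted proteins were far lower in BCAM high: Scgb3a1, a secretoglobin, measured 6.72 to 45.7 CPM (median 18.7) in BCAM high and 1796 to 17160 CPM (median 11100) in differentiated libraries (-9.08 ± 0.91, edgeR adjusted p = 6.3e-08). Bpifb1, a secreted BPI-fold protein, measured 1.76 to 45.2 CPM (median 8.31) against 290.1 to 7790 CPM (median 3726) (-9.29 ± 1.31, edgeR adjusted p = 6.6e-06), and Bpifa1, its abundant relative, 4859 to 19580 CPM (median 7017) against 6909 to 228600 CPM (median 168300) (-3.75 ± 0.71, edgeR adjusted p = 0.00021). Bpifa1 was therefore plentiful in both groups, and the groups overlapped. Its difference was -4.96 in batch 1 alone and -0.15 in batch 2 alone (edgeR adjusted p = 0.91), and it was not called with the replicate block. Hp (-4.85), Reg3g (-4.33), Chil1 (-2.82) and Scgb3a2 (-2.50) were also lower.

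Among the enzymes of club cells, Aldh1a1 (-2.42), which oxidises retinal, and Gsto1 (-0.88), a glutathione transferase, were lower over both batches. Cyp2f2, the cytochrome P450 that marks these cells, measured 10720 to 26400 CPM (median 20980) in BCAM high and 1400 to 38260 CPM (median 26270) in differentiated libraries (0.15 ± 0.36, edgeR adjusted p = 0.78). Cbr2, a carbonyl reductase, measured 6760 to 14080 CPM (median 7888) against 756 to 13930 CPM (median 10320) (0.27 ± 0.46, edgeR adjusted p = 0.68). Neither gene was called over both batches, and for both the groups overlapped. Within batch 1 both were lower in BCAM high (Cyp2f2 -0.46, edgeR adjusted p = 0.0025; Cbr2 -0.66, adjusted p = 8.6e-06), and within batch 2 Cbr2 was higher (2.65, adjusted p = 0.011) and Cyp2f2 was not called (1.61, adjusted p = 0.11). The difference between batches was itself called for Cyp2f2 (2.06, adjusted p = 0.014) and Cbr2 (3.31, adjusted p = 4.1e-05). Over the list, 10 of 14 tested were lower and none higher, median -2.66; in batch 1 alone 14 were lower, and in batch 2 alone 5 were lower and 2 higher. In 9 of the 14 every batch 2 differentiated library lay below every batch 1 one, an order that 10.8% of all tested genes had.

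Goblet cell and gland products were lower more evenly: 13 of 14 tested, median -4.31, and none higher. Ltf, the iron-binding lactoferrin of submucosal glands, measured 43.6 to 324 CPM (median 139) in BCAM high and 5002 to 51850 CPM (median 43330) in differentiated libraries (-7.69 ± 0.69, edgeR adjusted p = 1.1e-08). Lyz2, a lysozyme, measured 35.4 to 318 CPM (median 80.5) against 1236 to 25210 CPM (median 20240) (-7.06 ± 0.61, edgeR adjusted p = 6.2e-09), and the groups did not overlap for either. Muc5ac (-4.56), the goblet mucin, Agr2 (-4.07), a chaperone of mucin folding, Lcn2 (-3.12) and Spdef (-2.42), a transcription factor of goblet cells, were lower as well. Pigr, the receptor that carries immunoglobulins across the epithelium, was lower over both batches (-6.18 ± 0.90, edgeR adjusted p = 1e-05). It stood at -8.00 in batch 1 alone and was not called in batch 2 alone (-2.10, edgeR adjusted p = 0.086). Its BCAM high libraries averaged 4.17 CPM in batch 1 against 146 CPM in batch 2. The chloride channel regulator Clca3b was the exception (0.24 ± 0.33, edgeR adjusted p = 0.6). Tests within each batch called 13 members lower in batch 1 and 9 in batch 2.

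**Figure D3:**
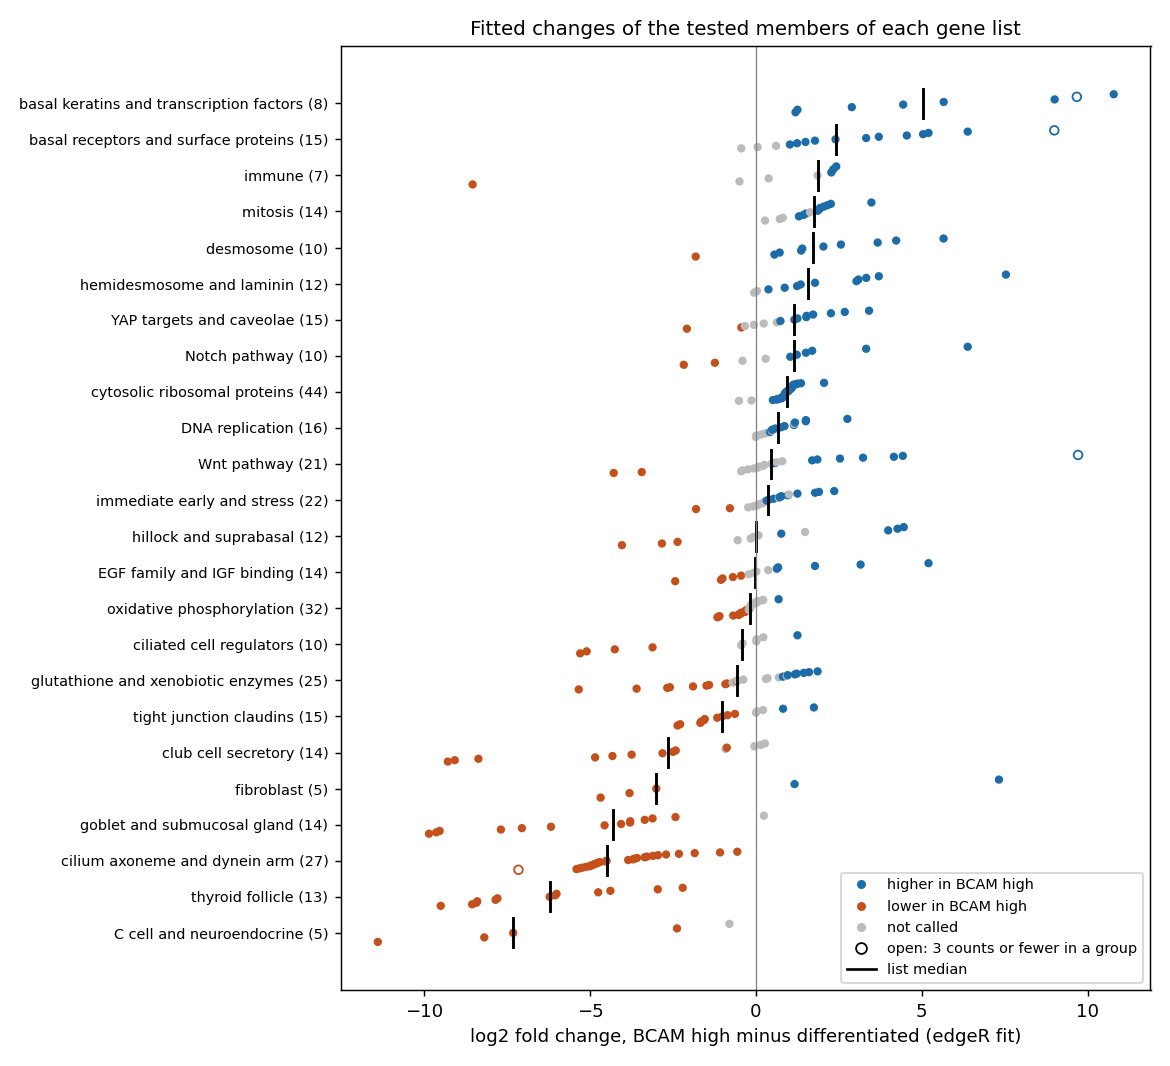
Log2 fold change (BCAM high minus differentiated) of every tested member of the lists with at least 5 tested members (number in brackets), blue where called higher, orange where called lower, grey where not called, with a black line at the list median. Open circles mark genes with 3 counts or fewer in 1 group, whose fitted value is no measured fold; basal lists lie to the right and cilium, gland and thyroid lists to the left.

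Ciliated cells build motile cilia from axonemal tubulins, dynein arms and radial spokes under transcription factors such as Foxj1 and the RFX family. All 27 tested members of the 28 cilium genes were called lower in BCAM high, median -4.50, and 25 and 27 were lower in batch 1 and batch 2 alone. Spef2, of the central pair of microtubules, measured 0 to 0.588 CPM (median 0.12) in BCAM high and 2.11 to 27.7 CPM (median 8.28) in differentiated libraries (-5.41 ± 0.81, edgeR adjusted p = 3e-06). Cfap52 was at 0 to 1.38 CPM (median 0.576) against 13.2 to 62.1 CPM (median 18.4) (-5.32 ± 0.72, edgeR adjusted p = 1.9e-06), and Ccdc40, which sets the spacing of dynein arms, differed alike (-5.24 ± 0.51, edgeR adjusted p = 1.5e-09). The tubulins Tubb4b (-0.56) and Tuba1a (-1.84) and the tubulin-binding Tppp3 (-1.08) changed least. Tekt4, a tektin of the axoneme, had 2 counts in all BCAM high libraries together, 211-fold (95% interval 57.9 to 1760) fewer than in the differentiated group by counting error. The summed list level did not overlap between groups, at 460.5 to 1132 CPM and 1382 to 3590 CPM, but as a share of all counts, without TMM, it did: up to 0.133% in BCAM high and from 0.118% in differentiated libraries.

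These genes moved together, so their promoters are shown. RFX factors bind variants of the X-box, a pair of inverted arms of which GTTGCC is one. RefSeq start sites (GRCm38.p6) were found for 24 of the 28 genes, and the 250 bases upstream held GTTGCC, on either strand, in 8 of the 24 genes; 11.8% of all 27025 genes and 10.4% of all 32851 promoters in the table did. Of 9 longer spellings searched on both strands, each overlapping this motif in whole or in part, GTTGCCNNG was found in 6 cilium genes (4.71% of all genes), GTTGCCNGG and GTTGCNATG in 1 each (1.58% and 1.41%) and GTTGCCATG in none of the 24 (0.733%). The other 5 were spellings of 10 or 14 letters that extend toward or into the second arm, found in 0 to 3 of the 24 genes and in 0.292% to 1.11% of all genes; the one with the most matches had them in Cfap44, Hydin and Pifo (0.407% of all genes). Windows around the match are printed 5′ to 3′ on the gene's strand and end at the start site at the latest, with the match to GTTGCC or its reverse complement in capitals, for 5 genes whose levels follow.
Cfap44 (chr16:44394753-44394798, + strand, 46 bases): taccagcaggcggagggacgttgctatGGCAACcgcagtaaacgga
Hydin (chr8:110266937-110266976, + strand, 40 bases): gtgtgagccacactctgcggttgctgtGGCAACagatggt
Pifo (chr3:106001498-106001536, - strand, 39 bases): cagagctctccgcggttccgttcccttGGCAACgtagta
Dnaic2 (chr11:114727366-114727418, + strand, 53 bases): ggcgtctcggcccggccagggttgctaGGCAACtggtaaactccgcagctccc
Dynlrb2 (chr8:116504937-116504996, + strand, 60 bases): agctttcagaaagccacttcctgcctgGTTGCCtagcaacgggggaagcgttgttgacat
A match of this kind is a description of the letters and shows no binding.

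Of those 5 genes, Cfap44 measured 0 to 2.64 CPM (median 0.59) in BCAM high and 4.75 to 29.2 CPM (median 8.76) in differentiated libraries (-3.28 ± 0.76, edgeR adjusted p = 0.00094). Hydin, of the central pair, measured 0 to 1.93 CPM (median 0.721) against 8.44 to 71.6 CPM (median 14.3) (-4.50 ± 0.71, edgeR adjusted p = 1.6e-05), and Dnaic2, a dynein arm chain, 0 to 1.1 CPM (median 0.365) against 4.37 to 56.8 CPM (median 13) (-5.13 ± 0.96, edgeR adjusted p = 0.00013). Dynlrb2, a light chain of dynein, differed by -4.99 ± 0.79, edgeR adjusted p = 2.6e-05. In these 4 genes no library crossed between groups. Pifo, active at the base of cilia, had BCAM high libraries of batch 2 at 4.39, 3.54 and 10.1 CPM, of which the highest lay within the differentiated range of 6.55 to 42 CPM (-3.59 ± 0.65, edgeR adjusted p = 9.2e-05).

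The regulators of ciliated cells were less uniform. Mcidas, which starts the programme, was lower (-3.12 ± 0.80, edgeR adjusted p = 0.0025; adjusted p = 0.096 in batch 2 alone), as was Deup1, which builds many centrioles (-5.10 ± 0.88, edgeR adjusted p = 4.1e-05). Foxj1 measured 0.826 to 5.63 CPM (median 1.52) in BCAM high and 13.1 to 96.7 CPM (median 22.1) in differentiated libraries, and the groups did not overlap. Ccno (0.01 ± 0.39, edgeR adjusted p = 0.98), Rfx2 (0.23 ± 0.20, edgeR adjusted p = 0.38), Rfx3 (-0.40), Myb (0.02) and Plk4 (-0.44) were not called. In all, 4 of 10 tested members were lower, among them Tekt1, a tektin placed on this list (-5.30), and 1, Trp73, was higher. Among all tested genes 22.0% were lower and 19.4% higher. With only the 16 libraries compared in the fit, 2 members were lower and none higher.

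Most genes of the rare cell types did not pass the filter on low counts. Of 11 ionocyte genes 4 passed the filter: Atp6v0d2 (-6.26 ± 0.98, edgeR adjusted p = 1.1e-05), Moxd1 (-3.83 ± 0.51, edgeR adjusted p = 1.6e-06) and Stap1 (-1.25 ± 0.44, edgeR adjusted p = 0.024) were lower and Atp6v1c2 was higher (1.28 ± 0.24, edgeR adjusted p = 0.00013). Stap1 lost its call without differentiated library 1 (adjusted p = 0.051) or 2 (adjusted p = 0.064). Foxi1 and Cftr, which define that cell, reached at most 13.2 and 9.28 CPM in any library and were not tested. Atp6v0d2 and Moxd1 peaked in differentiated library 7, the richest in thyroid RNA, at 82 and 293 counts. Foxi1 had 0 counts and Cftr 15 in that library. Which cells gave the Atp6v0d2 and Moxd1 transcripts was not tested. Of 14 tuft cell genes 3 passed and were called lower, at adjusted p of 0.022 to 0.023, and none was called in either batch alone: in batch 1 Lrmp and Dclk1 had adjusted p of 0.057 and 0.065 and Avil was not tested, and in batch 2 the 3 had adjusted p of 0.15 to 0.38. Dclk1 lost its call without differentiated library 7 (adjusted p = 0.053) and Avil without library 3 (adjusted p = 0.062). The defining genes Pou2f3 and Trpm5 reached at most 7.64 and 22.2 CPM.

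Markers of cells outside the epithelium were read the same way. Ptprc, the marker of leukocytes, stayed at or under 4.08 CPM in all 16 libraries, and Cd3e and Itgam at or under 2.22 and 1.47 CPM. Of 7 tested immune genes, Laptm5 (2.27 ± 0.64, edgeR adjusted p = 0.0053), Coro1a (2.33 ± 0.72, edgeR adjusted p = 0.0098) and Fcer1g (2.42 ± 0.73, edgeR adjusted p = 0.0081) were higher at 9.99 CPM or less, none of them called in batch 1 alone (adjusted p = 0.1, 0.068 and 0.096), and the lysozyme Lyz1 was lower. Of the fibroblast list, Dcn, the proteoglycan decorin, was higher in BCAM high at 159.5 to 667 CPM (median 417) against 0 to 7.1 CPM (median 2) (7.33 ± 0.40, edgeR adjusted p = 2.3e-12), while Col1a1 (-3.81 ± 1.23, edgeR adjusted p = 0.016), Col1a2 (-3.00 ± 0.99, edgeR adjusted p = 0.019) and Col3a1 (-4.68 ± 1.20, edgeR adjusted p = 0.0034) were lower, with their highest levels in differentiated libraries 1, 5 and 6. Without differentiated library 6, Col1a1 and Col1a2 lost their calls (adjusted p = 0.054 and 0.062), none of the 3 collagens was called in batch 2 alone (adjusted p = 0.23 to 0.45), and with only the 16 libraries in the fit they did not pass the filter on low counts. Pdgfra, a receptor of fibroblasts, reached 2.35 CPM at most in BCAM high and 59.9 CPM in differentiated libraries. The contractile gene Acta2 was higher (4.22 ± 0.81, edgeR adjusted p = 0.00016) and Mylk lower (-2.19 ± 0.32, edgeR adjusted p = 3.6e-06). Of 3 tested endothelial genes Egfl7, a secreted vessel protein, was higher at 1.42 to 11 CPM (median 5.58) against 0.427 to 1.64 CPM (median 0.939) (2.58 ± 0.41, edgeR adjusted p = 7.6e-06), though not called in batch 2 alone (2.16, adjusted p = 0.094), and Pecam1 (0.32 ± 0.36, edgeR adjusted p = 0.51) and Vwf (-0.22 ± 0.39, edgeR adjusted p = 0.69) were not called. Among those not tested, Cldn5 had 68 counts in BCAM high and 0 in differentiated libraries, Tie1 had 64 and 1, and Cdh5 stayed at or under 1.06 CPM. Sox9, listed for cartilage but also a transcription factor of glands, was lower (-3.60 ± 0.38, edgeR adjusted p = 5.1e-08).

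Genes of hillock and suprabasal cells, stratified patches between the basal and luminal layers, showed no common direction. Of 12 tested, 4 were higher (19.4% of all tested genes were) and 3 lower (22.0% of all were). Only the share of lower genes was near that of all genes. In batch 1 alone 3 were higher and 6 lower, and in batch 2 alone 4 were higher and 2 lower. Krt6a (4.46 ± 0.88, edgeR adjusted p = 0.0003), Sprr1a (3.99 ± 0.51, edgeR adjusted p = 2.7e-07) and Sprr2a3 (4.27 ± 0.46, edgeR adjusted p = 3.9e-08), a stress keratin and a pair of cornified envelope proteins, were higher, with Sprr2a3 at 2.06 to 196 CPM among the BCAM high libraries. Ly6d lost its call (0.77 ± 0.30, edgeR adjusted p = 0.04) when any 1 of 10 of the 16 libraries was left out (0.055 to 0.12). Serpinb2 (-2.83 ± 0.50, edgeR adjusted p = 7.6e-05) and Dmkn (-4.04 ± 0.64, edgeR adjusted p = 7.6e-06) were lower, and Serpinb2 stood at -3.24 in batch 1 alone and -0.81 in batch 2 alone (adjusted p = 0.57). Lgals3 (-0.16 ± 0.21, edgeR adjusted p = 0.59) and Krt4 (0.08 ± 0.36, edgeR adjusted p = 0.89) were not called over both batches; both were lower in batch 1 alone (Lgals3 -0.57, adjusted p = 5e-05; Krt4 -0.83, adjusted p = 1.6e-06), and Krt4 stood at 1.76 in batch 2 alone (adjusted p = 0.072).

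Enzymes of glutathione conjugation and drug metabolism divided too, with 7 of 25 tested higher and 10 lower, or 12 and 6 on unscaled TPM. On the TMM scale 19.4% of all tested genes were higher and 22.0% lower. Gstm1, a glutathione transferase, measured 1776 to 4121 CPM (median 3217) in BCAM high and 297 to 2627 CPM (median 1852) in differentiated libraries (1.18 ± 0.21, edgeR adjusted p = 8.5e-05). Its relative Gstm2 (1.6 ± 0.24, edgeR adjusted p = 7.9e-06), the glucuronosyltransferase Ugt1a6a (1.86 ± 0.36, edgeR adjusted p = 0.00022) and Cyp2s1 (1.45 ± 0.31, edgeR adjusted p = 0.00073) were higher; Cyp2s1 stood at 2.34 in batch 1 alone and 0.09 in batch 2 alone (adjusted p = 0.89). Cyp2a5 was lower, 70.8 to 286 CPM (median 92.5) against 319.5 to 7529 CPM (median 5367) (-5.34 ± 0.71, edgeR adjusted p = 3.3e-06), along with Gstt1 (-2.67), Ephx2 (-3.60) and Cyp2b10 (-2.59); Cyp2a5 and Cyp2b10 were not called in batch 2 alone (adjusted p = 0.069 and 0.1). For 18 of the 25 the batch 2 differentiated libraries all lay below the batch 1 ones; batch 1 alone called 16 lower and 6 higher, and batch 2 alone 5 lower and 9 higher. Cyp4b1 (-0.63 ± 0.35, edgeR adjusted p = 0.16) and Ces1d (-0.38 ± 0.16, edgeR adjusted p = 0.064) were not called over both batches and were lower in batch 1 alone (-1 and -0.65). Cyp4b1 was called lower without differentiated library 7 (adjusted p = 0.019), and Ces1d without BCAM high library 8 (adjusted p = 0.024) or differentiated library 6 (adjusted p = 0.014) or 7 (adjusted p = 0.02); on unscaled TPM Ces1d was higher (0.44).

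Protein synthesis genes rose together: 42 of 44 tested cytosolic ribosomal protein genes were higher, median 0.93, and none was lower. Rplp0, of the ribosomal stalk, measured 1915 to 3057 CPM (median 2551) in BCAM high and 891 to 1637 CPM (median 1069) in differentiated libraries (1.11 ± 0.09, edgeR adjusted p = 3.7e-11). Rps16 (1.36 ± 0.11, edgeR adjusted p = 5.3e-11) and Rps4x (1.22 ± 0.09, edgeR adjusted p = 4.2e-12) were alike, and the largest difference was that of Rpl5 (2.06 ± 0.23, edgeR adjusted p = 3.7e-08); Rps2 (-0.51 ± 0.24, edgeR adjusted p = 0.089) and Rpl10 (-0.13 ± 0.19, edgeR adjusted p = 0.61) were not called, and Rps2 was called lower without differentiated library 1 (-0.63, adjusted p = 0.022). These genes have many processed pseudogenes, so that single members are uncertain where reads were divided. The list held 22250 to 33520 CPM in BCAM high and 12290 to 18810 CPM in differentiated libraries, and 42 members were higher within batch 1 and 41 within batch 2, where Rpl10 was lower (-0.84, adjusted p = 0.0066).

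Nuclear genes of oxidative phosphorylation had mostly small differences. Of 32 tested, 13 were lower and 1, Uqcrc1 (0.69 ± 0.10, edgeR adjusted p = 3e-06), was higher, with a median of -0.18. Among all tested genes 22.0% were lower and 19.4% higher. On unscaled TPM 24 members were higher and 3 lower, so the direction of the list depends on the scaling. Ndufa4 (-1.12 ± 0.09, edgeR adjusted p = 3.8e-11), Ndufa1 (-1.16 ± 0.10, edgeR adjusted p = 1.9e-10) and Ndufb8 (-1.10 ± 0.14, edgeR adjusted p = 2e-07), subunits of respiratory complexes, were the clearest decreases under TMM. The abundant ATP synthase subunits Atp5b (-0.15 ± 0.08, edgeR adjusted p = 0.15) and Atp5a1 (0.06 ± 0.09, edgeR adjusted p = 0.63) were not called.

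Cell cycle genes were higher at low levels. Of 16 tested DNA replication genes 10 were higher, median 0.67, and of 14 tested mitosis genes 10 were higher, median 1.75; none was lower. Prc1, which bundles the spindle midzone, measured 15.3 to 33.9 CPM (median 24.2) in BCAM high and 1.58 to 8.96 CPM (median 4.94) in differentiated libraries (2.26 ± 0.30, edgeR adjusted p = 4.6e-07). Birc5, survivin, measured 1.18 to 14.4 CPM (median 7.85) against 0 to 2.11 CPM (median 0.566) (3.48 ± 0.59, edgeR adjusted p = 2e-05), and Rrm2, a subunit of ribonucleotide reductase, was higher (2.76 ± 0.53, edgeR adjusted p = 0.0001). The groups were apart for Prc1 and Rrm2 and overlapped for Birc5. In batch 2 alone 3 members of each list were higher; Cdk1 (0.72 ± 0.58, edgeR adjusted p = 0.34) and Mcm2 (0.48 ± 0.25, edgeR adjusted p = 0.13) were not called, but Mcm2 was higher without differentiated library 7 (0.63, adjusted p = 0.046).

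Immediate early and stress genes, which answer to growth factors and to tissue dissociation, were mixed. Of 22 tested, 10 were higher and 2 lower, or 20 and none on unscaled TPM. On the TMM scale 19.4% of all tested genes were higher and 22.0% lower. Fosl1 (2.36 ± 0.37, edgeR adjusted p = 5.3e-06), a subunit of AP-1, Egr2 (1.90 ± 0.25, edgeR adjusted p = 1e-06) and the chaperone Dnajb1 (1.78 ± 0.15, edgeR adjusted p = 1.8e-10) were higher, and Dnajb1 was also abundant, at 833 to 1449 CPM (median 1045) against 231 to 424 CPM (median 299.9). Myc was higher (1.25 ± 0.34, edgeR adjusted p = 0.0048), with 2.08 in batch 1 alone and 0.21 in batch 2 alone (adjusted p = 0.67). Junb (0.07 ± 0.11, edgeR adjusted p = 0.63) and Dusp1 (0.14 ± 0.15, edgeR adjusted p = 0.49) were not called over both batches. Dusp1 was higher in batch 2 alone (0.67, edgeR adjusted p = 0.0076), against -0.19 in batch 1 alone (adjusted p = 0.42). Klf2 (-1.80 ± 0.47, edgeR adjusted p = 0.0025) and Ier2 (-0.78 ± 0.25, edgeR adjusted p = 0.013) were lower, neither was called in batch 1 alone, and Ier2 stood at 0.08 on unscaled TPM. Myc and Ier2 were not called with the replicate block.

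Other genes with a mean of at least 10 CPM in the higher group had increases of similar size. Abi3bp, a matrix protein, measured 594 to 891 CPM (median 804) in BCAM high and 0.427 to 20.2 CPM (median 5.56) in differentiated libraries (6.92 ± 0.38, edgeR adjusted p = 2.3e-12). Acaa1b, a thiolase of peroxisomes, measured 140.1 to 359 CPM (median 196) against 0 to 5.28 CPM (median 1.63) (7.02 ± 0.31, edgeR adjusted p = 3.8e-15), and Dapl1 99.8 to 178 CPM (median 154) against 0 to 3.27 CPM (median 0.837) (6.98 ± 0.27, edgeR adjusted p = 4.8e-18). The carboxylesterase Ces2e (6.80 ± 0.47), the matrix protein Papln (6.73 ± 0.33) and Cd109, a surface protein that binds transforming growth factor beta (6.70 ± 0.40), were of the same size, and no library of one group reached the other for any of the 6. Among the most abundant genes higher by at least 1, F3, tissue factor of the clotting cascade, measured 2136 to 2752 CPM (median 2436) against 94.3 to 1192 CPM (median 963) (1.88 ± 0.35, edgeR adjusted p = 0.00016), and Epas1, a hypoxia-inducible transcription factor, 1987 to 3654 CPM (median 2465) against 153 to 1578 CPM (median 1355) (1.47 ± 0.37, edgeR adjusted p = 0.003). The difference was 1.26 in batch 1 and 3.36 in batch 2 for F3, and 0.62 and 3.35 for Epas1. Epas1 was not called with the replicate block. Gsdmc2, a gasdermin, was not tested by the fit; it had 3 counts in all differentiated libraries and a mean of 2.15 CPM in batch 1 and 682 CPM in batch 2 of BCAM high, a ratio of 1170-fold (95% interval 401 to 5690) that rests mostly on batch 2.

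Among the largest decreases were secreted proteins that varied widely among differentiated libraries. Lipf, gastric lipase, ranged over 0 to 22750 CPM (median 2706) in differentiated libraries and reached 18.4 CPM in BCAM high (-10.35 ± 1.70, edgeR adjusted p = 4.3e-05). Sbpl ranged over 0 to 13900 CPM (median 1347) and reached 16.8 CPM (-9.39 ± 1.45, edgeR adjusted p = 2.1e-05). For both genes the lowest differentiated library was at 0, so the groups overlapped although the difference was called. Cdhr4, a cadherin-related protein, did not overlap between the groups, at 0 to 0.889 CPM (median 0.131) against 23.9 to 253 CPM (median 40.7) (-8.60 ± 1.13, edgeR adjusted p = 2.4e-06). Lyz1, a lysozyme, ranged over 0.427 to 1487 CPM (median 70.6) in differentiated libraries and overlapped (-8.54 ± 1.42, edgeR adjusted p = 5e-05). Dcpp1, Dcpp2 and Dcpp3 are near-identical neighbours whose counts cannot be divided with certainty; Dcpp1 had no count in BCAM high and was at least 1930-fold lower taking 3 counts in the whole BCAM high group as the floor. Of its 3128 differentiated counts 2655 came from library 8, without which the bound was 346-fold. By the same bound the secretoglobin Scgb2b17 was at least 305-fold lower (200-fold without library 1). Tnmd, tenomodulin, had 346 of its 370 differentiated counts in library 2 and none in libraries 4 to 8; its bound of 228-fold was 16.5-fold without library 2. Cd177, with 3 counts in BCAM high, was 430.0-fold (95% interval 146 to 2090) lower. In batch 2 alone Lipf (0.055), Lyz1 (0.1), Dcpp1 (0.079) and Dcpp2 (0.083) did not pass the test (adjusted p in parentheses).

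**Figure D4:**
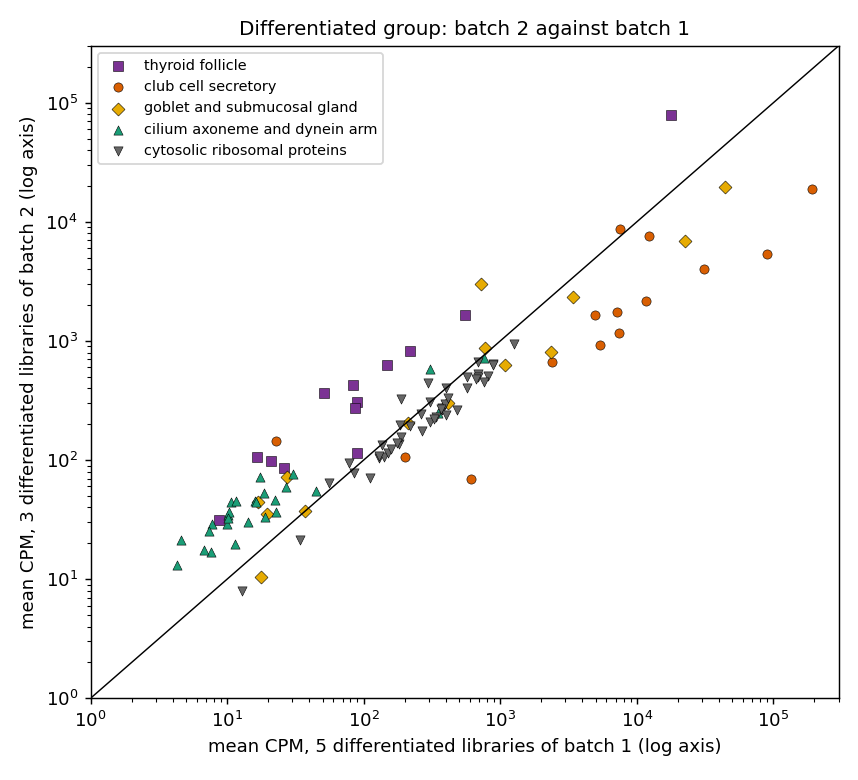
Mean CPM of the tested members of 5 gene lists in the 3 differentiated libraries of batch 2 against the 5 of batch 1 (both log axes), with the line of equal levels. Thyroid and most cilium genes lie above the line and most club cell genes below it.

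The size of a difference depended on batch for 1061 genes (8.69% of those tested), with 661 differences more positive in batch 2 and 400 more negative; 242 of them were called higher and 393 lower over both batches. Without differentiated libraries 6 and 7 the number was 324. Trim29, a protein of stratified epithelia, measured 291 to 368 CPM (median 325) in BCAM high, a mean of 6.16 CPM in differentiated libraries of batch 1 and 0 in all 3 of batch 2. Fer1l6, a ferlin, had a BCAM high mean of 0.808 CPM in batch 1 and 131 CPM in batch 2, against 13.7 and 34.2 CPM in differentiated libraries. Differentiated libraries averaged 31.2 CPM of Tnfaip2 in batch 1 against 4.77 CPM in batch 2, and 32.5 CPM of Atp13a5 against 7.65 CPM. In the other direction, differentiated libraries of batch 2 averaged more Spag8, Fhad1, Ccdc96 and Rp1, at 29.1, 45.7, 14.1 and 16.9 CPM against 10.5, 8.97, 3.37 and 5.72 CPM in batch 1. Gprc5b, an orphan receptor, was at 0 in all 5 differentiated libraries of batch 1 and at a mean of 3.17 CPM in batch 2, and its dependence on batch lost its call without differentiated library 8 (adjusted p = 0.11).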

How the data were processed

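RNA of 24 libraries of sorted tracheal epithelial cells was measured by Smart-seq2 with paired reads of 38 bases, per the labels' protocols. The authors deposited 1 table per library with kallisto's estimated counts and TPM per transcript, per the file headers; kallisto 46.1, Picard and the build GRCm39 are named in the submitters' processing notes. Settings for strand and multi-mapping reads are not stated. Per gene, the estimated counts of its transcripts were added up, rounded to whole numbers and named from GENCODE M21 (GRCm38), so printed gene coordinates are those of GRCm38 and not of the authors' index. Totals of 2249001 to 3686896 set the precision; intervals of count ratios are exact 95% intervals and cover counting error only.

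Genes kept by edgeR's filterByExpr were scaled by TMM and fitted with edgeR 4.0.16 (quasi-likelihood, robust) in R 4.3.3 over all 24 libraries, with group and batch as terms, and a gene was called at a Benjamini-Hochberg adjusted p under 0.05. A second fit held the product of group and batch. The script was tested on simulated data. The 31 gene lists (506 genes), the comparison and the rules for named genes were chosen with earlier results of these data known. The rules took the 10 largest changes per direction at a mean of 10 CPM or more, the 5 most abundant genes per direction changed by a log2 of at least 1, up to 4 called members per direction and 2 uncalled ones of each list, the 5 largest batch differences per direction, and 5 per direction with 3 counts or fewer in the lower group; a few other list members are named beside them, chosen after their values were seen. Alternatives were DESeq2 1.42.0, limma 3.58.1 on log2(TPM + 0.1) and log2(TPM + 1), no filter, 16 libraries only, a replicate block, no batch term, each batch alone, lists removed, list levels as covariates, edgeR's glmTreat, and each library left out. Leaving out differentiated libraries 6 and 7 together and TMM scaling of TPM were chosen after seeing the data. A few genes of the lists entered the fits and list counts but are not reported here by name. Promoter sequences come from RefSeq (GRCm38.p6).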

Additional observations from a re-analysis of the deposited data

Results flagged for a closer look

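Among 105 sets of 8 values examined (summed lists and leading genes in each group), 11 had a library that lay far from the other 7. The cut used gives about 1 in 20 by chance for separate, normally distributed values. CPM levels are skewed and the sets share libraries, so that rate does not hold here. Differentiated library 2 held 17830 CPM of parathyroid genes (the others 4.53 to 3332) and 11600 CPM of C cell and neuroendocrine genes (383.5 to 2537), Chga being the largest of the latter. Differentiated library 8 held 5710 CPM of Dcpp3 (37.4 to 1550), 22750 CPM of Lipf (0 to 4976), 5898 CPM of Dmbt1 (91.8 to 2499), 13900 CPM of Sbpl (0 to 4429) and 253.1 CPM of Cdhr4 (23.9 to 128.8). Differentiated library 6 held 111.3 CPM of mitosis genes (31.1 to 58.9). BCAM high library 7 held 1326 CPM of thyroid genes (56.2 to 483.1), BCAM high library 6 held 74.3 CPM of endothelial genes (32.3 to 50) and BCAM high library 8 held 45.7 CPM of Scgb3a1 (6.72 to 24.4).

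Of 204 named genes, 55 had a difference that depended on batch (edgeR interaction, adjusted p under 0.05), 36 more positive in batch 2 and 19 more negative; 10 of the 55 were named for that difference, and 8.69% of all tested genes had one. The values that follow are the log2 difference in batch 2 less that in batch 1. Among basal and anchoring genes they were 4.03 for Col17a1, 4.16 for Ngfr, 2.63 for Krt15, 2.51 for Pkp1, 0.83 for Cd44, -1.71 for Trp63 and -1.51 for Bcam. Among club and gland genes they were 4.81 for Bpifa1, 4.23 for Bpifb1, 4.09 for Scgb1a1, 5.89 for Pigr, 2.06 for Cyp2f2 and 3.31 for Cbr2. Among hillock and tight junction genes they were 2.59 for Krt4, 1.24 for Lgals3, 2.26 for Cldn23, 3.40 for Cldn10 and 1.48 for Tjp3. Among metabolic enzymes they were 1.55 for Gstm1, 1.35 for Gstm2, 2.63 for Ugt1a6a, 2.81 for Fmo2, 4.28 for Cyp2a5, 0.80 for Ces1d, -2.25 for Cyp2s1, -3.18 for Ephx2 and -2.41 for Gstt1. Among signalling genes they were 0.91 for Notch2, 2.16 for Hey1, 2.98 for Lgr6, -1.24 for Lgr4, -2.59 for Axl and -1.64 for Ccn2. Among immediate early genes they were -0.75 for Dnajb1, -1.87 for Myc, -1.46 for Ier2 and 0.86 for Dusp1. The ionocyte genes Atp6v1c2 and Moxd1 gave 1.38 and -2.32, Ndufb8 gave -0.95, Rpl10 gave -1.08, Tbx1 gave 3.14 and Tagln, a contractile protein, gave 6.75. The remaining values were 2.69 for Abi3bp, 2.73 for Epas1, 2.09 for F3, 7.32 for Trim29, 5.99 for Fer1l6, 5.16 for Tnfaip2, 5.05 for Atp13a5, -6.76 for Spag8, -6.72 for Fhad1, -5.82 for Gprc5b, -5.42 for Ccdc96 and -5.03 for Rp1. Genes at 0 in a group and batch, such as Trim29 and Gprc5b in differentiated libraries, have fitted values that are no measured fold.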

How the results depend on the processing

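The numbers of genes called stayed within 1.5 times of 2363 higher and 2681 lower under the other count fits except where given here. Leaving out 1 library gave 2126 to 2454 higher, 2576 to 2769 lower and 720 to 1514 batch-dependent genes. The count moved further with glmTreat against a log2 change of 1 (484 higher, 816 lower), limma on log2(TPM + 0.1) (6809 and 879) or log2(TPM + 1) (6812 and 901), and the thyroid and parathyroid covariates (152 and 101), of which the thyroid level does not overlap between the groups; batch dependence fell to 324 without differentiated libraries 6 and 7. With the covariates these genes called over both batches changed sign, none with an adjusted p under 0.5: Krt6a -2.27, Trp73 -0.48, Lrmp 4.33, Dclk1 0.27, Mcm5 -0.23, Thbs1 0.16, Myc -0.34, Cldn1 -1.05, Pkp2 0.32, Cyp2s1 -0.67, Tg 3.19, Iyd 0.74, Pth 0.40 and Grp 0.34. On unscaled TPM (pseudocount 0.1, then 1) the sign changed for these genes called in either fit: Tgfa (0.39, 0.31), Amotl2 (0.03 in both), Ier2 (0.08 in both), Lgals3 (0.68 in both), Lgr4 (0.50, 0.46), Erbb3 (0.67, 0.61), Ces1d (0.44 in both), Atp5b (0.61 in both) and Rpl10 (0.50 in both). In batch 1 alone 13 named genes changed sign, of which Krt4 (-0.83), Cyp2f2 (-0.46) and Cbr2 (-0.66) were called there; in batch 2 alone 17 did, of which Fer1l6 (1.94) was called there and Cldn10 (0.75) over both batches; the other 10 and 15 were called in neither fit. The cause was not tested. Leaving out 1 library weakened 66 of 4820 gene values, made 18 pass and turned none; of the counts of called list members, 23 of 1104 moved by over 1.5 times then and 182 of 690 under the other alternatives. Same-numbered libraries had correlations of 0.0354 to 0.161, 3 of 8 over 0.1. Small as these were, every library of both groups correlated best with its own number among those of its batch. The labels state no pairing and the main fit holds none, but the data point to one. The p-values of the main fit therefore ignore what same-numbered libraries share. The replicate block gave 2100 higher and 2440 lower genes, and Krt15, Epas1, Bpifa1, Ly6d, Myc, Ier2, Cldn10 and Fmo2 were not called with it. Low depth limits genes of rare cells, most of which were not tested.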
